A study of Mus musculus with 5 samples.

Results

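Small RNA measurements by RT-PCR are read against control RNAs that are taken to be steady. The 5 such controls of a mouse muscle injury series are described here: the spliceosomal RNA U6 (assay MammU6), the small nucleolar RNAs (snoRNAs) snoRNA135, snoRNA202 and U87, and the Y RNA Y1. They were picked out by assay name and not by a rule on any measured value, though with earlier results of these data known. They are 5 of 222 assays, the other 217 being miRNAs. Only U6 is marked as the endogenous control in the deposited files.

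U6 is a nuclear RNA at the catalytic centre of the spliceosome and is made by RNA polymerase III. C/D box snoRNAs are cut from introns, often of genes for ribosomal proteins or of long noncoding host genes, and guide 2′-O-methylation of ribosomal and spliceosomal RNA in the nucleolus. Y RNAs, also made by RNA polymerase III, are bound by the Ro60 and La proteins and take part in RNA quality control and in the start of DNA replication. Unlike miRNAs, they are not made by the usual route through Drosha and Dicer, and U6 and the snoRNAs reside in the nucleus. Skeletal muscle fibres are very large cells with many nuclei. After injury the tissue is filled by leukocytes and dividing myogenic cells, which rebuild the fibres.

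Tibialis anterior muscles came from C57BL/6J males aged 4 to 6 months. Muscles were taken 1, 3, 4, 7 or 21 days after 100 µl of cardiotoxin at 2.5 µM had been injected into the front compartment of both hind legs, or without injection (baseline). Cardiotoxin is a snake venom peptide that lyses muscle fibres and spares many satellite cells, the muscle stem cells. No group injected with vehicle alone was analysed here, so the injection itself and the toxin cannot be told apart. The labels give 4 mice per time point, and the same 4 baseline values per assay serve all 5 time points, so the comparisons below share their baseline. The files do not say which mouse a value came from. The 4 values were taken as 4 mice, and if some were repeats of one RNA the p-values measure technical spread.

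The files hold threshold cycles (Ct): the more RNA an assay finds, the earlier its product crosses the detection line and the lower its Ct. A change is the difference in mean Ct with its sign turned, on the log2 scale, and positive means more RNA than at baseline. Fold values assume perfect amplification in every cycle. No source used here gives assay efficiencies or the amount of RNA per reaction, so Ct levels are not compared between RNAs. The controls lay between Ct 11.48 and 23.5, far from the last cycle (40), and all 5 passed the limit of Ct 35 in every value. In whole muscle, fewer cells of a type and less RNA per cell cannot be told apart. An assay was called changed at an adjusted p under 0.05 (limma, Benjamini-Hochberg over all assays tested, two-sided).

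U6 had more signal than baseline through the first week. Its Ct values were 14.65, 15.17, 14.92 and 14.6 at baseline, 13.3, 12.95, 11.48 and 12.44 on day 1, and 13.75, 12.92, 12.36 and 12.99 on day 3. They were 13.76, 12.86, 13.77 and 12.48 on day 4, 12.74, 14.15, 14.44 and 12.87 on day 7, and 15.08, 15.0, 14.06 and 14.12 on day 21. All values of days 1, 3, 4 and 7 lay below all baseline values, while those of day 21 overlapped them. The mean was 12.5 ± 0.791 on day 1, against 14.8 ± 0.264 at baseline (SD, n = 4 each), a change of 2.29 ± 0.43 (SE; 4.90-fold higher; limma adjusted p = 5.36e-05). The change was 1.83 on day 3 and 1.62 on day 4, and 1.29 ± 0.43 on day 7 (limma adjusted p = 0.00949). On day 21 it was 0.27 and did not pass (95% interval -0.62 to 1.16). Days 4, 7 and 21 each held values that fell into a lower and a higher pair, and the SD of day 7 (0.870) was the largest of any control RNA in any arm.

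snoRNA135 was higher than baseline at all 5 time points. RefSeq names it Snord65, a snoRNA within the long noncoding RNA gene 2410006H16Rik (assembly GRCm38.p6). Its Ct values were 20.75, 20.35, 20.1 and 19.89 at baseline, 18.69, 18.68, 18.01 and 18.76 on day 1, and 17.99, 17.99, 17.23 and 17.95 on day 3. They were 18.02, 17.76, 18.08 and 17.34 on day 4, 17.49, 18.09, 18.22 and 17.83 on day 7, and 19.13, 19.1, 18.92 and 18.79 on day 21. No value of any day reached the lowest baseline value. The increase was 1.74 ± 0.23 on day 1 (limma adjusted p = 5.40e-07) and 2.48 on day 3 (5.59-fold). It was 2.47 on day 4 and 2.36 on day 7. On day 21 snoRNA135 averaged Ct 19.0 ± 0.160, against 20.3 ± 0.370 at baseline, still 1.29 higher (2.44-fold; limma adjusted p = 4.33e-05). Day 3 was 0.74 above day 1 (limma adjusted p = 0.00612). Day 4 differed from day 3 by -0.01 and day 7 from day 4 by -0.11, and neither step passed.

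snoRNA202 varied least of the 5. The assembly's gene table has no entry under that name. Snord68, a snoRNA within the ribosomal protein gene Rpl13, carries the older name MBII-202 there, and no source used here says whether the assay targets it. Its Ct values were 14.82, 14.8, 14.27 and 14.17 at baseline, 14.16, 14.35, 14.08 and 14.49 on day 1, and 14.07, 14.15, 13.92 and 14.28 on day 3. They were 13.77, 14.0, 13.99 and 13.88 on day 4, 13.98, 13.97, 13.97 and 13.98 on day 7, and 14.34, 14.56, 14.11 and 14.4 on day 21. Days 4 and 7 lay wholly below baseline, and days 1, 3 and 21 overlapped it. The rise was 0.60 on day 4 (1.52-fold; limma adjusted p = 0.000884) and 0.54 on day 7. The 0.41 ± 0.15 of day 3 also passed (limma adjusted p = 0.0159). That call was lost in 3 of 8 refits that left out 1 value of the pair of arms. It was also lost in an exact permutation test over the 8 values (adjusted p = 0.105). Changes on days 1 and 21 were 0.24 (95% interval -0.07 to 0.56) and 0.16 (-0.15 to 0.47) and did not pass. The 4 values of day 7 were all 13.97 or 13.98.

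U87, listed by RefSeq as Snord87 within the genes Snhg6 and Mcmdc2, was higher than baseline by 0.84 to 1.06 on days 1 to 7. Its Ct values were 21.73, 21.88, 21.17 and 20.98 at baseline, 20.72, 21.32, 19.95 and 20.42 on day 1, and 20.33, 20.55, 19.99 and 20.66 on day 3. They were 20.5, 20.41, 20.68 and 20.36 on day 4, 20.4, 20.47, 20.45 and 20.21 on day 7, and 20.44, 21.91, 20.78 and 21.07 on day 21. Days 3, 4 and 7 lay wholly below baseline. On day 1 the second value (21.32) lay among the baseline values, and on day 21 the second value (21.91) was above all of them. The change was 0.84 ± 0.28 on day 1 (limma adjusted p = 0.0110), 1.06 on day 3, 0.95 on day 4 and 1.06 on day 7 (2.08-fold; limma adjusted p = 0.00177). On day 21 it was 0.39 and did not pass (95% interval -0.20 to 0.98). Without the third value of day 1 the call of that day was lost, and without the second value of day 21 that day's change passed. The day 1 call was also lost in an exact permutation test (adjusted p = 0.115).

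Y1, matched by symbol to Rny1, moved the other way. Its Ct values were 20.87, 20.72, 19.99 and 19.66 at baseline, 23.02, 23.5, 21.96 and 22.16 on day 1, and 20.93, 20.79, 20.81 and 21.16 on day 3. They were 19.58, 19.63, 19.79 and 19.65 on day 4, 20.25, 20.11, 20.34 and 20.18 on day 7, and 21.07, 21.66, 20.99 and 21.21 on day 21. Days 1 and 21 lay wholly above baseline in Ct, which is less RNA. Y1 averaged Ct 22.7 ± 0.725 on day 1, against 20.3 ± 0.579 at baseline, and fell by 2.35 ± 0.28 (5.10-fold lower; limma adjusted p = 1.12e-07). Day 3 was 1.74 above day 1 and day 4 was 1.26 above day 3 (limma adjusted p = 1.30e-05 and 0.000808), steps at which 71.1% and 38.5% of all assays were called. The change was -0.61 on day 3 and 0.65 on day 4, both with overlapping values. Those calls (limma adjusted p = 0.0472 and 0.0353) were lost in 6 and 5 of 8 refits that left out 1 value. Neither held in an exact permutation test (adjusted p = 0.105 and 0.0684). Day 7 differed from baseline by 0.09 (95% interval -0.49 to 0.67), and day 21 fell by 0.92 below it (1.90-fold lower; limma adjusted p = 0.00652).

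**Figure D1:**
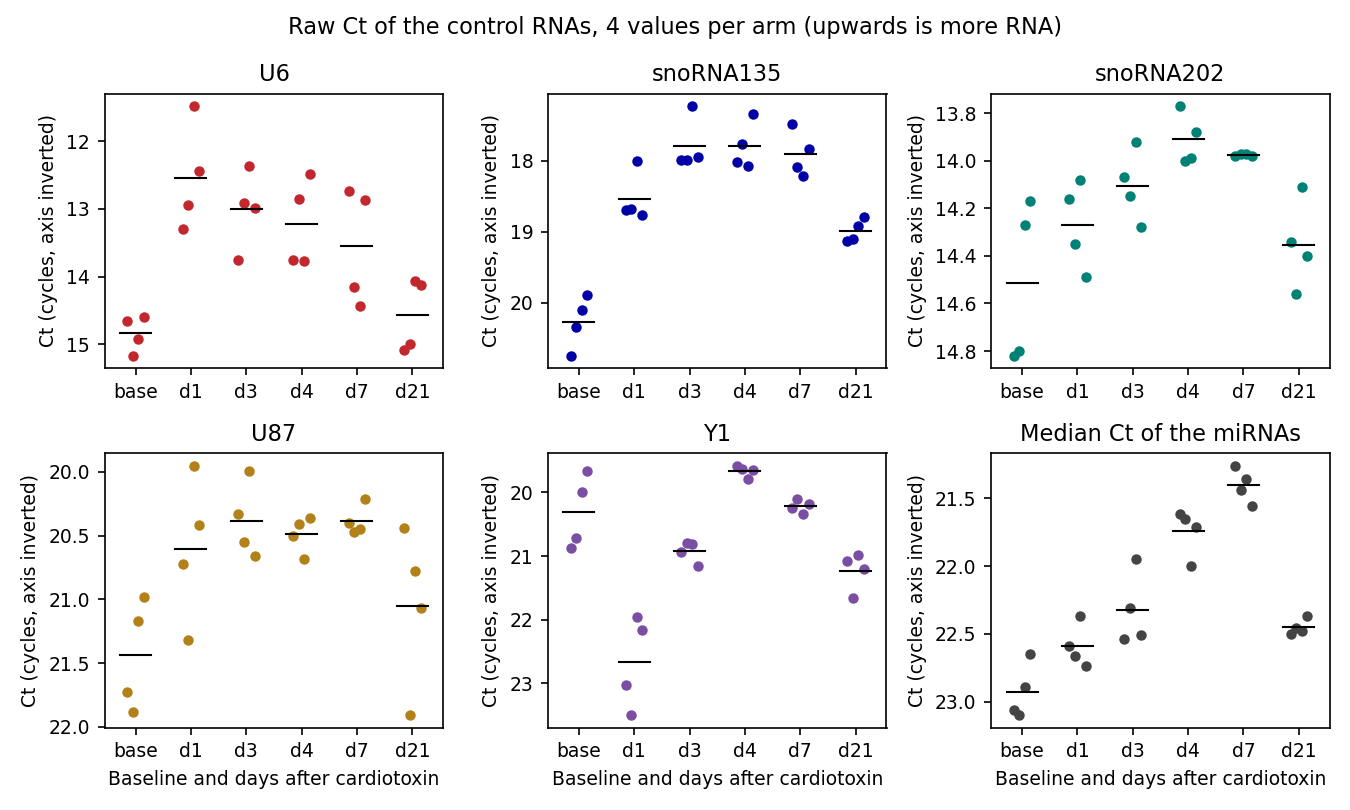
Raw Ct of the 5 control RNAs and the median Ct of the miRNAs. Each panel has the time point on the x axis (baseline, then days after cardiotoxin) and Ct in cycles on an inverted y axis, with 4 points per arm and a bar at their mean. Y1 has its lowest level on day 1 (mean Ct 22.7), when U6 has its highest (mean Ct 12.5).

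By raw Ct, 4 of the 5 controls were called on day 1, where 73.1% of all assays tested were called. On day 3 all 5 were called (82.9% of all assays), and on day 4 again 5 (86.7%). On day 7 the count was 4 (78.0%) and on day 21 it was 2 (64.2%). In these counts the controls stood close to the background of the panel, except on day 21, when the count was lower than the background share. Values of 3, 3, 4, 4 and 2 of the 5 controls did not overlap baseline on days 1, 3, 4, 7 and 21, where 66.7%, 71.9%, 80.3%, 74.8% and 60.6% of all assays did not. The median miRNA was 0.38, 0.71, 0.94, 1.19 and 0.15 higher than baseline on days 1, 3, 4, 7 and 21, on the log2 scale. Between days 7 and 21 all 5 controls fell, by 0.38 to 1.08, and 67.0% of all assays were lower on day 21 than on day 7. On the median-miRNA scale described next, none of the 5 was called lower on that step, and snoRNA202 was higher by 0.67 (limma adjusted p = 2.31e-05).

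Relative to the median miRNA, the 5 controls went in different directions. The scale subtracts, for each value, the median change of the 205 miRNAs that were under Ct 35 in every value. It takes the nth values of all assays in an arm as one RNA, which the files do not state. In total 14 of 25 changes passed. snoRNA135 stayed higher at all 5 time points, by 1.35 ± 0.15 on day 1, 1.77 on day 3, 1.53 on day 4, 1.17 on day 7 and 1.14 on day 21 (largest limma adjusted p 9.09e-07). U6 was higher by 1.91 ± 0.39 on day 1 (limma adjusted p = 0.000117) and by 1.12 on day 3. Its values of 0.67, 0.09 and 0.12 on days 4, 7 and 21 did not pass. The day 3 call of U6 did not hold in an exact permutation test over the 8 values.

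U87 passed at none of the 5 time points on that scale, with changes of 0.45, 0.35, 0.01, -0.14 and 0.24 in time order. The 95% interval of day 1 reached 0.92, so the missed threshold does not show that U87 kept to the median miRNA. Without the second value of day 1 or of day 21, that day's change passed, and day 3 passed in an exact permutation test. snoRNA202 fell by 0.30 on day 3, by 0.34 on day 4 and by 0.65 on day 7 (limma adjusted p = 1.33e-05 for day 7), which is opposite in sign to its raw changes. Its values of -0.14 and 0.01 on days 1 and 21 did not pass, and the day 3 call was lost in 4 of 8 refits without 1 value. Y1 fell by 2.73 ± 0.23 on day 1 (6.65-fold lower; limma adjusted p = 5.14e-10), by 1.32 on day 3, by 1.10 on day 7 and by 1.07 on day 21. The -0.30 of day 4 did not pass. With the mean of the miRNAs in place of their median, Y1 on day 4 (-0.50) and snoRNA202 on day 1 (-0.45) and day 21 (-0.28) also passed, all as lower. The shares of all assays called on this scale were 79.6%, 79.7%, 83.5%, 82.1% and 72.5% on days 1, 3, 4, 7 and 21, against 3, 4, 2, 3 and 2 of the 5 controls.

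**Figure D2:**
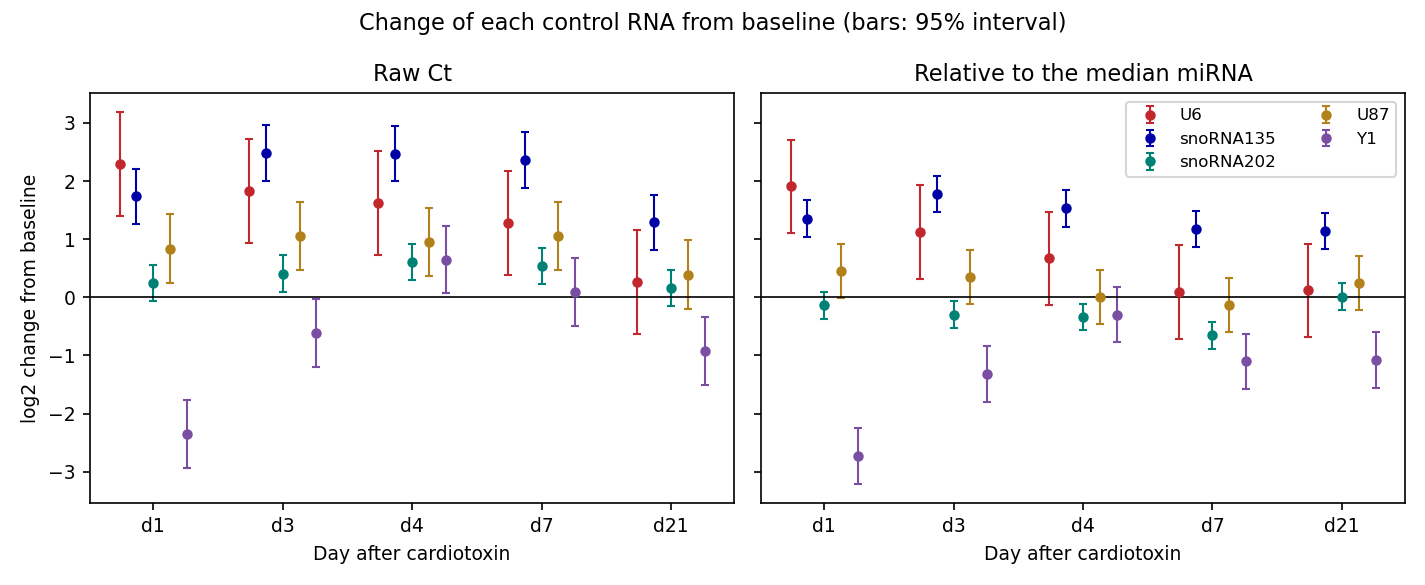
Change of each control RNA from baseline on the log2 scale (y axis) by day (x axis), from raw Ct on the left and relative to the median miRNA on the right. Points are fitted changes and bars their 95% intervals (n = 4 values per arm). On the right snoRNA135 stays above 0 at all 5 time points, and Y1 lies furthest below 0 on day 1, at -2.73.

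The controls were also set against each other. If both assays of a pair amplify equally well, their ratio does not depend on the amount of RNA. Each of the 10 pairs was tested at each of the 5 time points (50 tests) with an exact permutation test, two-sided, on the Ct difference between the nth values. The smallest p that 4 against 4 values allow is 0.0286, and it gave an adjusted p of 0.042 over the 50 tests. In total 34 of 50 pair changes passed, with 8, 9, 5, 7 and 5 of 10 pairs on days 1, 3, 4, 7 and 21. The 50 tests are not independent, since the pairs share their RNAs and the time points share one baseline. With values left unaligned, 28 of 50 had a 95% interval that excluded 0.

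U6 and Y1 parted most. The Ct of Y1 exceeded that of U6 by 10.1 ± 0.460 on day 1, against 5.48 ± 0.547 at baseline (SD, n = 4 each), a shift of 4.64 or 25-fold (exact permutation test, adjusted p = 0.042). The lowest day 1 difference (9.72) lay above the highest baseline one (6.22). snoRNA135 and Y1 shifted by 4.09 on day 1 (17.0-fold), and that pair passed at all 5 time points, still by 2.21 on day 21. The pair of snoRNAs snoRNA135 and snoRNA202 also passed at all 5, by 1.49, 2.07, 1.87, 1.82 and 1.12 in time order.

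U87 and Y1 shifted by 3.19 on day 1 (9.11-fold) and snoRNA202 and Y1 by 2.60, and each of these pairs passed at 4 time points. For snoRNA202 and Y1 the day 7 shift (0.45) did not pass with limma (adjusted p = 0.0961). Its unaligned 95% interval (-0.42 to 1.32) included 0. snoRNA202 and U87 kept the narrowest ratio, with a range of 0.648 cycles over the 6 arm means and an SD of 0.365 over 24 values. U87 still gained on snoRNA202 by 0.65 on day 3, 0.35 on day 4 and 0.52 on day 7 (exact permutation test, adjusted p = 0.042 each). These 3 calls rest on the alignment of nth values, since the unaligned 95% intervals (-1.38 to 0.08, -1.04 to 0.34 and -1.20 to 0.17) include 0. With limma, days 4 and 7 did not pass (adjusted p = 0.182 and 0.0515). U6 and U87 passed on day 1 alone, by 1.46 (2.74-fold), and their interval on day 4 ran from -0.17 to 1.5. U6 and snoRNA135 differed in change by 0.56 on day 1, which did not pass (95% interval -0.09 to 1.20). That pair passed on days 3, 4, 7 and 21 with the opposite sign, by -0.65, -0.85, -1.08 and -1.02 (exact permutation test, adjusted p = 0.042 each). Unaligned, the 95% interval excluded 0 on day 21 (-1.87 to -0.16) and not on days 3, 4 and 7, and with limma day 3 did not pass (adjusted p = 0.0550).

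Over the whole course the controls differed widely in spread. Among the 210 assays under Ct 35 in every value, snoRNA202 had the SD of rank 2 (0.275 cycles over 24 raw values), U87 rank 34 (0.543), snoRNA135 rank 94 (0.950), U6 rank 101 (1.02) and Y1 rank 109 (1.04). The median miRNA assay had an SD of 1.04, so snoRNA135, U6 and Y1 varied about as much as a typical miRNA of the panel. The range of arm means was 0.605 cycles for snoRNA202, 1.06 for U87, 2.48 for snoRNA135, 2.29 for U6 and 3.0 for Y1. On the median-miRNA scale, snoRNA202 had rank 1 and U87 rank 6. Without day 1, Y1 had rank 60 and snoRNA202 rank 8.

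Spread within an arm was a different matter. U6 had a within-arm SD of 0.646 cycles, rank 189 of 210, against a median of 0.303 for the miRNAs. U87 (0.415), Y1 (0.408) and snoRNA135 (0.327) also lay above that median, and only snoRNA202 (0.192, rank 15) lay below it. When each control was subtracted value by value from the miRNAs, the median within-arm SD of the 205 miRNAs was 0.635 with U6, 0.441 with Y1, 0.435 with U87, 0.345 with snoRNA135 and 0.279 with snoRNA202. Subtracting the median miRNA gave 0.260, and no subtraction 0.303. snoRNA202 was thus the only one of the 5 that left miRNA values closer together within arms than raw Ct.

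**Figure D3:**
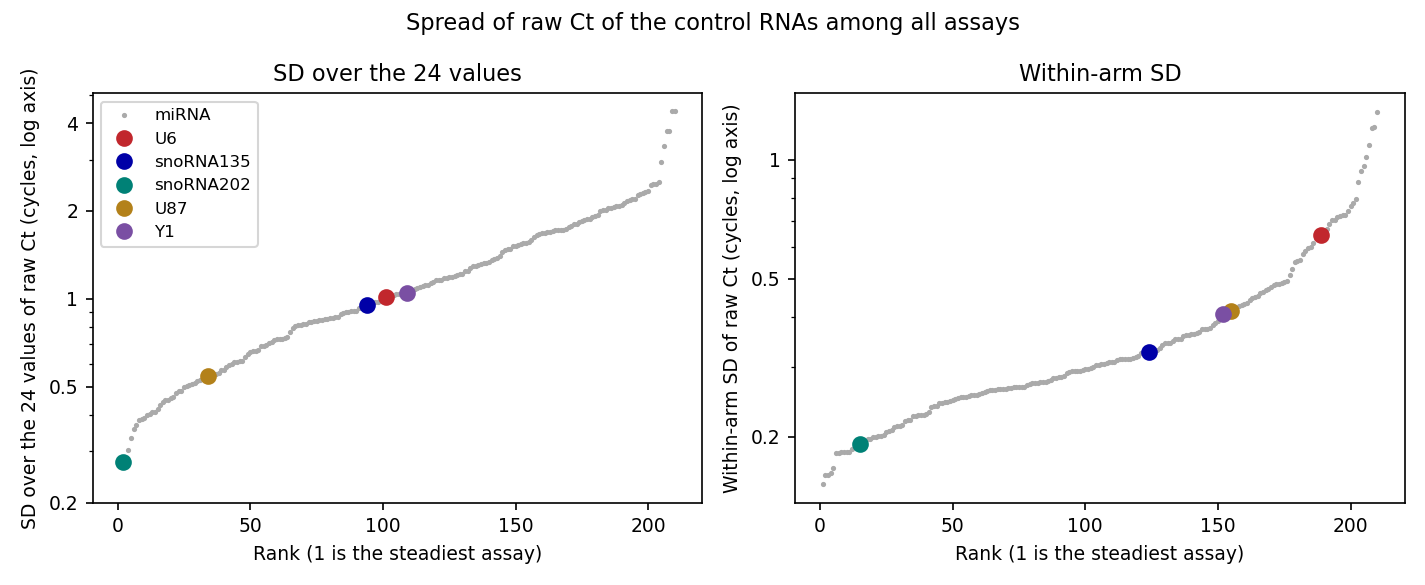
SD over the 24 raw Ct values (left) and within-arm SD (right), in cycles on a log axis, of 210 assays ranked from the steadiest on the x axis. Grey points are miRNAs and coloured points the controls. snoRNA202 lies at rank 2 on the left and U6 at rank 189 on the right.

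On day 1 the direction called for most miRNAs depended on the control. Of 211 miRNAs tested, 19 were higher and 140 lower than baseline relative to U6 (75.4% called), while 188 were higher and 2 lower relative to Y1 (90.0%). snoRNA135 gave 40 higher and 134 lower (82.5% called), U87 gave 66 and 96 (76.8%), and snoRNA202 gave 89 and 73 (76.8%). The median miRNA gave 87 higher and 82 lower, and raw Ct 96 and 58. Thus 117 miRNAs (55.5%) were called in opposite directions by a pair of the controls, and the pair of U6 and Y1 alone did so for 117. Only 19 miRNAs were higher and 2 lower with all 5.

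Later time points differed less between controls. On day 4, when Y1 did not differ from the median miRNA by the test, 42 miRNAs were higher and 71 lower with all 5 controls, and 25 of 213 (11.7%) had opposite calls. Opposite calls were given to 63 miRNAs on day 3, 38 on day 7 and 52 on day 21. On day 21, U6 called 47 miRNAs higher and 42 lower (41.8%), whereas the median miRNA called 76 and 80. snoRNA135, which was still above baseline then, gave 35 higher and 138 lower on day 21 (81.2% called), and Y1 gave 124 higher and 7 lower (61.5%).

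**Figure D4:**
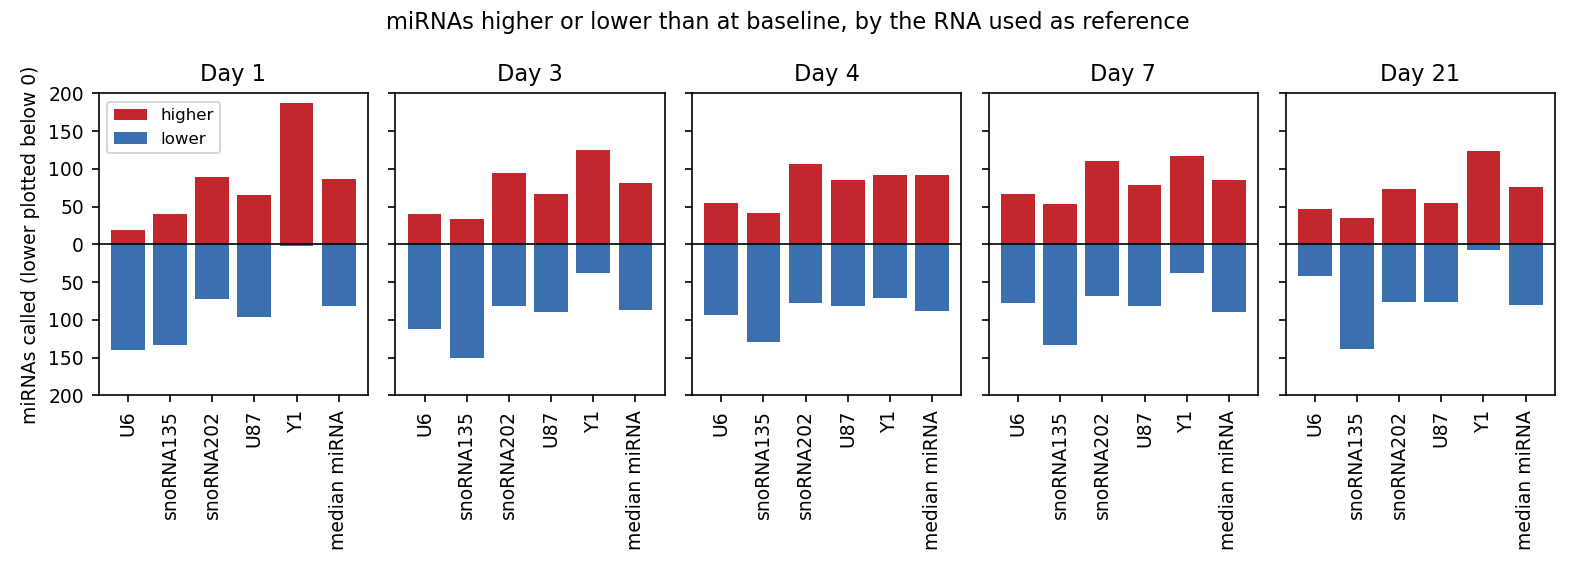
Number of miRNAs called higher (red, above 0) or lower (blue, below 0) than at baseline on each day, by the RNA subtracted: each control, or the median miRNA. On day 1 the bars for U6 (19 higher, 140 lower) and Y1 (188 higher, 2 lower) point opposite ways.

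The miRNAs whose raw profile over the 6 arm means was nearest to each control were found by the root mean square distance after centring. For U6 these were miR-106b (0.0594 cycles), miR-19b (0.165) and miR-467b (0.243), where the median distance of 205 miRNAs was 1.12. The mature forms of miR-106b and miR-93 are shown because they share a seed (bases 2 to 8, in capitals) and were, in order, the nearest to U6 and one of the miRNAs often proposed as references; miR-19b is the next nearest to U6. Sequences here and below are from RefSeq (GRCm38.p6), and the arm shown is the one that carried the older name without an arm.
miR-106b-5p: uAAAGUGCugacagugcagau
miR-93-5p: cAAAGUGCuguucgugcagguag
miR-19b-3p: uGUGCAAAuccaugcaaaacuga

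miR-106b, of the miR-17 family and encoded with miR-93 and miR-25 in one cluster, had the arm means nearest to those of U6, with a within-arm SD of 0.267 against 0.646 for U6. Its Ct values were 18.41, 18.53, 18.46 and 18.78 on day 1, against 21.34, 20.9, 20.26 and 20.29 at baseline. The day 1 values lay wholly below baseline and spanned less than those of U6, with an SD of 0.164 against 0.791, while at baseline the order was reversed (0.520 against 0.264). miR-93 had 17.42, 17.44, 17.78 and 18.2 on day 1, against 19.98, 19.51, 19.25 and 19.42 at baseline, a rise of 1.83 (limma adjusted p = 5.92e-09).

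snoRNA202 lay nearest to miR-872 (0.183 cycles), miR-125a-5p (0.216) and let-7e (0.231). Pearson's r with them over the 6 arm means was 0.63, 0.82 and 0.097, so the nearness of let-7e was not one of shape. By the SD over 24 raw values, the 3 steadiest miRNAs were miR-872 (0.269, rank 1), let-7g (0.279, rank 3) and miR-24 (0.304, rank 4), on both sides of snoRNA202. Their mature sequences are shown because they, with snoRNA202, are the assays of smallest SD in raw Ct. That SD includes the spread within arms. By range of arm means in raw Ct the order differed. There let-7e had rank 1 (0.325), let-7g rank 2 (0.4975), miR-24 rank 3 (0.56), snoRNA202 rank 4 (0.605) and miR-872 rank 5 (0.66). let-7e and let-7g, members of the let-7 family known for opposing proliferation, share the seed GAGGUAG.
miR-872-5p: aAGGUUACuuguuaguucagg
miR-24-3p: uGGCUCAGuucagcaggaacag
let-7g-5p: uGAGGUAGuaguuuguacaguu
let-7e-5p: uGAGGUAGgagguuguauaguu

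U87 lay nearest to let-7i (0.182 cycles), miR-27a (0.187) and miR-301a (0.266). snoRNA135 lay nearest to miR-184 (0.237), miR-449a (0.293) and miR-674 (0.327). Y1 had no close partner by distance: its nearest were miR-107 (0.527), let-7a (0.573) and miR-345-3p (0.618). In shape it was like miR-107, with a Pearson's r of 0.975 over the 6 arm means, against 0.84 and 0.77 for the other nearest. miR-107 is shown beside miR-103, which has the same seed and is often proposed as a reference.
let-7i-5p: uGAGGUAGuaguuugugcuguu
let-7a-5p: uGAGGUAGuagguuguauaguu
miR-107-3p: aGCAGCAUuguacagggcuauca
miR-103-3p: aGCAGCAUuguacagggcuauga

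miR-107 had Ct values of 33, 34.17, 29.74 and 30.21 on day 1, against 29.01, 29.11, 28.58 and 28.03 at baseline. Its first and second values were the highest of day 1, as were those of Y1. let-7a had 22.01, 22.65, 22.5 and 22.8 on day 1, against 21.99, 22.05, 21.62 and 20.82 at baseline, and fell by 0.87 (limma adjusted p = 0.00441). The distances were not scaled, so they reflect the size of the changes as well as their shape, over 6 arms that share one baseline. Nothing follows from them about shared control.

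**Figure D5:**
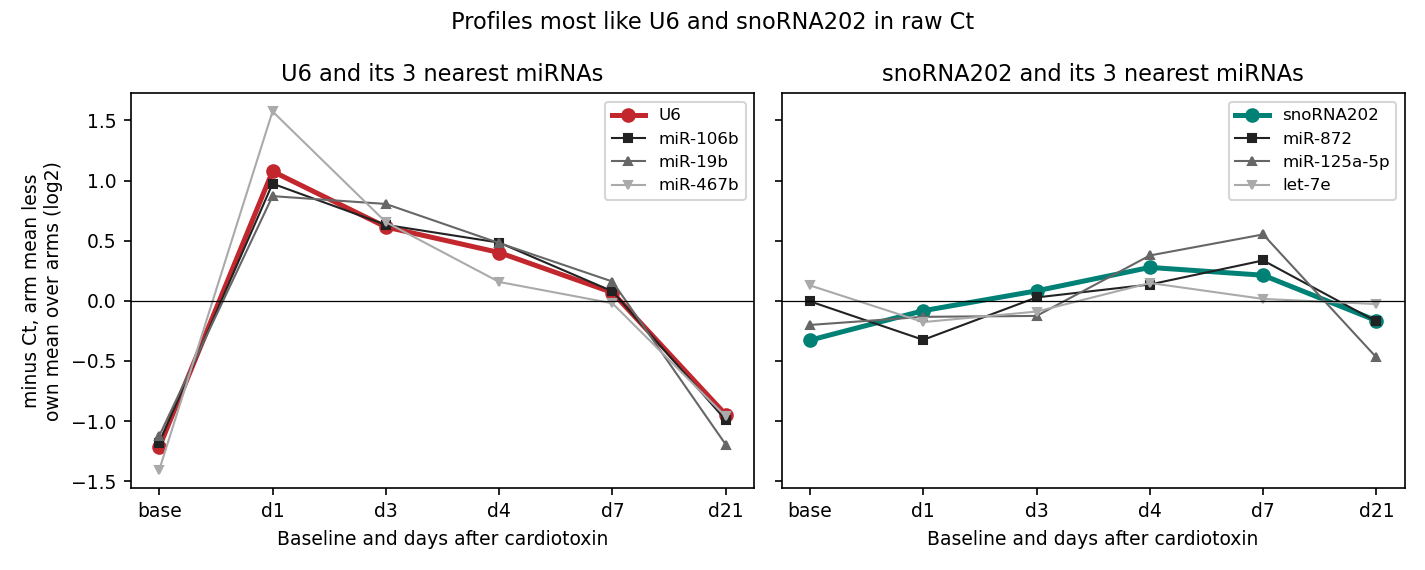
Centred profiles of U6 (left) and snoRNA202 (right) with the 3 nearest miRNAs of each: minus the arm mean Ct less the assay's mean over arms, in log2 units, by time point. miR-106b runs within 0.0594 cycles (root mean square) of U6, and snoRNA202 and its neighbours stay close to 0.

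Of 15 miRNAs that have been proposed as references for RT-PCR, 13 were measured. Relative to the median miRNA, 6 were higher, 4 lower and 3 not called on day 1, and 5 higher, 7 lower and 1 not called on day 3. Of all miRNAs tested, 87 were higher and 82 lower of 211 on day 1, and 82 and 87 of 212 on day 3, so the share called on day 1 was near that of the panel. On day 4 the 13 had 2 higher, 6 lower and 5 not called. Those counts were 0, 9 and 4 on day 7, and 0, 7 and 6 on day 21. Of 213 miRNAs tested, 92 were higher and 88 lower on day 4, and 86 and 90 on day 7. On day 21 they were 76 and 80 of 213. The median change of the 13 was 0.02 on day 1 and -1.0 on day 7. That of all miRNAs tested was -0.04 and 0.06. In raw Ct the 13 had 5 higher, 3 lower and 5 not called on day 7, with a median change of 0.19. On day 21 the raw counts were 0, 6 and 7. Of the 213 miRNAs tested, 123 were higher and 43 lower in raw Ct on day 7, and 77 and 61 on day 21. The lower calls of the 13 on day 7 were thus mostly relative to a median miRNA that was itself 1.19 higher than baseline. By SD of raw Ct, miR-24 had rank 4, miR-195 rank 16, miR-191 rank 31 and miR-103 rank 32, all ahead of U87. The remaining 9 ranked between 37 (miR-26b) and 158 (miR-425), and snoRNA202 (rank 2) had a smaller SD than all 13. By the range of arm means, however, miR-24 (0.56, rank 3) was ahead of snoRNA202 (0.605, rank 4), and without day 1 miR-191 (rank 6) and miR-24 (rank 7) were ahead of it (rank 8).

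Markers of cell makeup moved in the same muscles. The summed level of 5 measured miRNAs of muscle fibres, over the baseline mean, was 0.0693 to 0.314 on day 1 and 0.0169 to 0.0744 on day 3, against 0.841 to 1.10 at baseline. On day 21 it was 0.389 to 0.501. Relative to the median miRNA, 5 of 5 were lower on day 1. The summed level of 6 miRNAs of blood cells was 17.3 to 25.2 on day 1, against 0.903 to 1.11 at baseline, and on day 21 it was 0.724 to 0.851. Relative to the median miRNA, 4 of these 6 were higher and 0 lower on day 1, beside 87 higher and 82 lower of 211 miRNAs tested. The 6 went opposite ways later, with 3 higher and 2 lower on day 3. They had 3 and 3 on days 4 and 7, and 2 and 2 on day 21. For all miRNAs tested, the subtraction of their median itself holds the calls near an even split. They had 82 higher and 87 lower of 212 on day 3. Among 213 tested, the counts were 92 and 88 on day 4, 86 and 90 on day 7, and 76 and 80 on day 21. On day 21 miR-142-3p and miR-142-5p were higher by 0.92 and 0.79, while miR-150 and miR-155 fell by 0.79 and 0.36 (limma adjusted p at most 0.0389). The sums add assays of unknown efficiency and weigh those of low Ct most. On day 3 miR-499, a fibre miRNA, was at or over Ct 35 in all 4 values and was not tested. Their part in the changes of U6, snoRNA135 and Y1 was not tested.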

How the data were processed

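The values were raw Ct, deposited by the authors without normalization in a column per time point and one for baseline; per the labels' protocols, total RNA (miRNeasy, integrity number above 9) was measured by TaqMan assays over 40 cycles on a 7900HT. The threshold setting is not given in the sources used here. The number of values per arm limits the precision. The baseline was identical in the 5 files and used once. Members and lists were chosen with earlier results of these data known. Named were all 5 controls, the 3 miRNAs nearest to each, the 3 of smallest SD, and the measured members of the lists of proposed references, muscle fibre and blood cell miRNAs, the last lists by counts.

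An assay was tested where at least 3 of 4 values were under Ct 35 in both arms. All 6 arms entered one limma 3.58.1 fit (lmFit and eBayes, R 4.3.3), on raw Ct, on the median-miRNA scale and against each control, with p-values adjusted over all assays tested. Pairs were tested by exact permutation (scipy 1.17.1, Python 3.11.15). The fit was tested on simulated data in which most assays were unchanged and rises of miRNAs matched falls. These data are not so balanced, so that test does not show how the median-miRNA scale behaves in them. Alternatives were other Ct limits, other central values, 2 arms only, an exact test, and each value left out.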

Additional observations from a re-analysis of the deposited data

Results flagged for a closer look

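In 60 groups of 4 values (the 5 controls in 6 arms, as raw Ct and relative to the median miRNA), chance alone sets about 1 in 20 apart. A value stood apart from the other 3 in 2 groups, both of snoRNA135 in raw Ct. On day 1 its lowest Ct was 18.01, with the others between 18.68 and 18.76, and the gap took a share of 0.893 of the range. On day 3 its lowest Ct was 17.23, with the others between 17.95 and 17.99, a share of 0.947. Both were the third value of their arm. On both days the third value was also the lowest Ct of U6, snoRNA202, U87 and the median miRNA. For Y1 this held on day 1 and not on day 3.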

How the results depend on the processing

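The counts of control changes called held within 1.5 times under every alternative run: 18 to 21 of 25 in raw Ct and 13 to 15 of 25 relative to the median miRNA when 1 value was left out. Changes that did not pass turned sign in places. In raw Ct, Y1 on day 7 ran from -0.10 to 0.31 when 1 value was left out. Relative to the median miRNA the ranges were -0.13 to 0.36 (U6, day 7), -0.0467 to 0.32 (U6, day 21), -0.11 to 0.0756 (U87, day 4) and -0.0667 to 0.0713 (snoRNA202, day 21). Against the mean of the miRNAs these were -0.16, -0.17, -0.20 and -0.28, of which the -0.28 passed as lower, and U87 on day 21 was -0.055; against the median of all miRNAs U87 on day 4 was -0.0794. The cause was not tested. Relative to U6 on day 21, 89 miRNAs were called, against 140 with the mean of the 5 controls, 156 with the median miRNA and 138 with raw Ct. By SD rank, relative to the median miRNA snoRNA135 was 32, snoRNA202 1 and U87 6; by range of arm means snoRNA202 was 4 and U87 22; without day 1 snoRNA202 was 8 and Y1 60. Values were not paired between arms, since the labels number no values and the files name no mouse. Within an arm, the nth values of all assays were taken as one RNA.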
